A study of Mus musculus with 6 samples.

Results

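Cish and the SOCS genes encode the suppressor of cytokine signaling family, and the report follows them with Stat5a and Stat5b in RNA-seq of Ly6C Low macrophages (MPs) from injured mouse muscle. The members were taken by gene name, and all 10 listed genes were among the 13008 genes of the deposited table. Averaged over the 6 samples, all 10 were at or above 1 on the normalized scale. Cish was selected on its normalized values in the contrast of Control and Cripto KO, and lies near the deleted gene on chromosome 9, so its difference is given as a description, without a test. The other 9 genes belong to the set by family and not by their values.

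Control and Cripto KO MPs were compared in 3 samples each, all labelled C57BL/6J, male and 3 months of age. The MPs were sorted as F4/80+ Ly6C Low cells on day 5 after cardiotoxin injection into hind limb muscles. By the study's account the sequenced cells were also sorted for GFP, the signal of the R26 mTmG reporter for cells of the Cre lineage. The labels give the Control genotype as wild type and the KO genotype as Tg:LysMCre::Cripto-/-, in which lysozyme M control drives Cre in the myeloid lineage. The study instead describes its Control animals as carrying LysMCre and the R26 mTmG reporter, and its KO animals as carrying that reporter too. The sources used here do not say whether a sample was 1 animal or a pool, so the p-values measure the spread between these samples. Values of Tdgf1, which encodes Cripto, were not analysed here, so the deleted gene could not serve to check the labels.

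The deposited values were found to be reads plus 0.5, scaled to a normalized library size, and are called normalized values below. Recovered reads summed to between 12688968 and 14141773 in the Control and between 14633880 and 15659847 in the Cripto KO samples. Of 10 macrophage markers, all 10 were in the table, and Adgre1, which encodes F4/80, was between 1185 and 1283 in the Control and between 1065 and 1384 in the Cripto KO samples. A pair of Control samples stood apart from the rest. Xist was 171 in Control replicate 1 and at most 0.885 in the other samples, although all are labelled male. Lyz2, which encodes lysozyme M, was 11066 in Control replicate 2 and at most 28.3 in the other samples. Control replicates 1 and 3, at 25.2 and 21.4, were like the Cripto KO samples, between 21.2 and 28.3. The Control samples were thus not alike in Lyz2, and how this bears on their genotype was not tested. Results that rest on Control replicate 1 or 2 are therefore given with and without that sample.

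When a cytokine binds its receptor, JAK kinases phosphorylate STAT proteins, which enter the nucleus and switch on target genes. Several SOCS genes and Cish are among those targets, and their proteins bind the receptor or the kinase and damp the signal, partly by bringing in a ubiquitin ligase, so that the pathway limits itself. Cish and Socs2 are known as targets of STAT5, which acts downstream of GM-CSF, IL-3, erythropoietin, growth hormone and prolactin, Socs3 as a target of STAT3 downstream of IL-6 and related cytokines, and Socs1 as a target of interferon-gamma.

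STAT dimers bind the letters TTCNNNGAA, a palindrome that reads the same on both strands. RefSeq promoters, which run from 250 bases before to 50 bases after a transcription start on GRCm38.p6, were found for 6 of the 10 members in 8 windows. The window of Cish (chr9:107296409-107296708, plus strand) and that of Socs3 (chr11:117969317-117969616, minus strand) are shown because they were the ones with a match, which is printed in capitals, 5′ to 3′.
Cish: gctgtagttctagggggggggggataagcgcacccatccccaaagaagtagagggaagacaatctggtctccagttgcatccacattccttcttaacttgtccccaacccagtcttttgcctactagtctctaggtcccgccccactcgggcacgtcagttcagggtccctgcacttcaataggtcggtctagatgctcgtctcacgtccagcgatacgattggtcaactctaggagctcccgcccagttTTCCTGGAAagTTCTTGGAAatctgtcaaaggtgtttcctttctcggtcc
Socs3: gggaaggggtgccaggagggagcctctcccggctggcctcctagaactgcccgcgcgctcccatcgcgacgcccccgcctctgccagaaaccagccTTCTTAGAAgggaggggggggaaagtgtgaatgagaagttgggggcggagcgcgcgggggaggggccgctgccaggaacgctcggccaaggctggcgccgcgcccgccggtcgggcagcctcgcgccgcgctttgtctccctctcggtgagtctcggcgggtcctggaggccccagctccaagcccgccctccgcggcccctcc
The window of Cish held 2 matches, whose first bases lie 11 bases apart at bases 251 and 262 of the window. Both matches thus lie past the 250 bases before the start used. The window itself lies within the gene body given for Cish below, which begins at 107296026. The window of Socs3 held 1 match, at base 97. The windows of Socs1, Socs4, Stat5a and Stat5b held none. Of all 32851 promoter windows, 8.30% held at least 1 match and 0.457% held at least 2. A match of letters is not evidence of binding.

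Cish (ENSMUSG00000032578) encodes a SOCS family protein induced through STAT5, and lies on chromosome 9 of GRCm38 from 107296026 to 107302784, 3.64 Mb from Tdgf1. Its normalized value was 28.5, 14.3 and 10.1 in Control replicates 1, 2 and 3, and 2.25, 2.58 and 2.45 in Cripto KO replicates 1, 2 and 3. These values came from 387, 189 and 123 reads in Control and from 35, 36 and 35 reads in Cripto KO samples, well above the floor of 3 reads. Every Control sample was above every Cripto KO sample, and the lowest Control value was several times the highest Cripto KO value. In the whole table, Control lay above Cripto KO without overlap in 7.92% of genes, and nothing is read from this for Cish. Control MPs had a mean of 17.6 ± 9.66 (SD, n = 3) and Cripto KO MPs one of 2.43 ± 0.166 (SD, n = 3). The log2 fold change of Control over Cripto KO was 2.73 (standard error 0.33), a 6.61-fold difference. Without Control replicate 1, the sample with high Xist, it was 4.96-fold, and without Control replicate 2, the sample with high Lyz2, it was 6.99-fold.

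The Control samples also differed among themselves in Cish. The highest was 2.83 times the lowest in Control, against 1.15 times in Cripto KO MPs. Over the 3428 genes with a mean normalized value between 5 and 20, the median of that ratio in Control was 1.24. Of them 41, Cish included, had a ratio at least as large as that of Cish. The spread thus stood in the group with the higher level, whereas the Cripto KO samples lay close together. Much of it rested on Control replicate 1, the sample with high Xist, at 28.5, since Control replicates 2 and 3 were at 14.3 and 10.1.

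Markers of other cells were examined because Cish is also known from lymphocytes, mast cells and other blood cells. Of 8 mast cell and basophil markers, none was in the table. Of 13 markers of T cells, NK cells and innate lymphoid cells, 2 were in the table, Cd4 and Il7r, which macrophages can also express, and their sum was between 133 and 158 in the Control and between 115 and 131 in the Cripto KO samples. The defining genes of this list, Cd3d, Cd3e and Cd3g, were not among the genes of the table. Of 6 eosinophil markers, 2 were in the table, with sums between 2.94 and 3.83 in the Control and between 2.90 and 3.81 in the Cripto KO samples. The sums of Cd4 and Il7r did not overlap between the groups, and both genes had an unadjusted p-value under 0.05 and were higher in Control, like Cish (limma, log2 fold change 0.29 and 0.20, adjusted p = 0.529 and 0.512).

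The summed level of 7 of 8 muscle fiber markers was 66.7, 35.2 and 31.9 in Control replicates 1, 2 and 3, and 48.4, 18.3 and 16.6 in Cripto KO replicates 1, 2 and 3. Of the 7 genes, 0 passed the limma test after adjustment, 5 were under 0.05 by unadjusted p (8.59% of all genes were), and the median log2 fold change was 0.89. Of the 5, Ckm, Myh1, Myh4 and Tnnt3 were higher in Control, whereas Myog, a regulator of muscle differentiation named like them after its values had been seen, was lower (-0.94). Control replicate 1 was highest both for this sum and for Cish. Cripto KO replicate 1 had a larger sum than Control replicates 2 and 3 and a lower Cish value than either. The 8 fibroblast markers had higher sums in Cripto KO samples, between 463 and 486 in the Control and between 546 and 596 in the Cripto KO samples, 8 of 8 log2 fold changes below 0, 0 passing after adjustment and 5 with an unadjusted p-value under 0.05. The part of muscle fiber and fibroblast RNA in the Cish values was not tested. In sorted bulk samples, fewer cells that express a gene and less RNA per cell cannot be told apart.

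**Figure D1:**
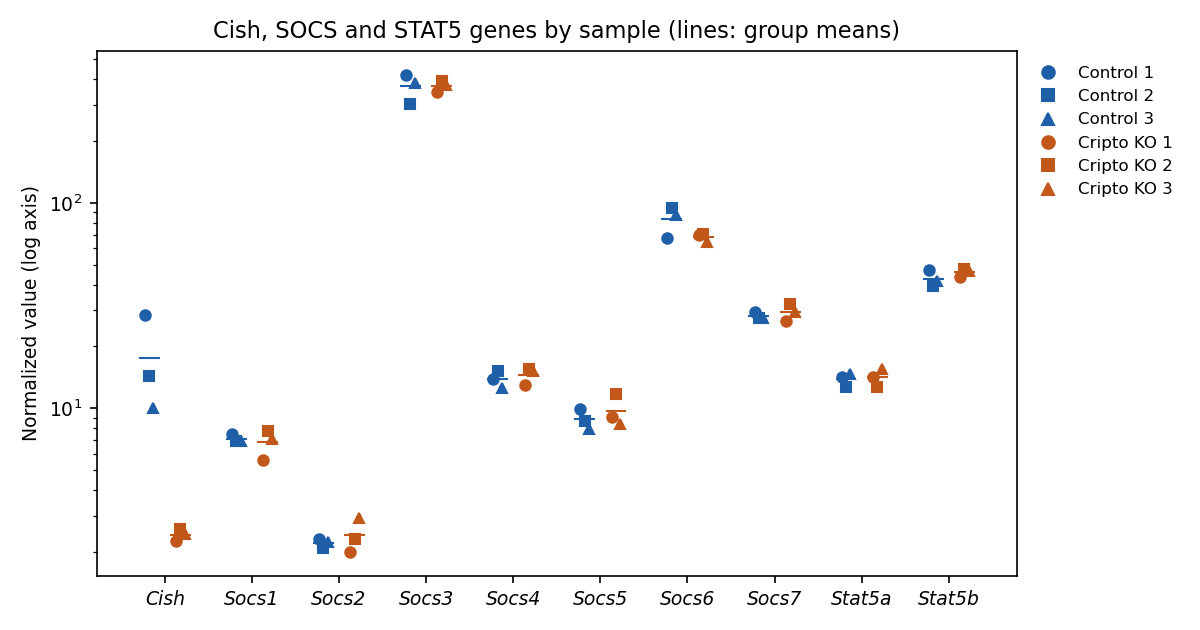
Normalized value (log axis) of the 10 genes in each of 3 Control and 3 Cripto KO samples, with a short line at each group mean. The Control values of Cish, between 10.1 and 28.5, sit above the Cripto KO values, between 2.25 and 2.58, and the 2 groups overlap in each of the other 9 genes.

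Next, the unlinked paralogs of Cish were compared between the groups. With limma over all 13008 genes, 0 of the 9 other members had an adjusted p-value under 0.05, against 17 genes, or 0.131%, in the whole table (0.0846% higher and 0.0461% lower in Control). The groups overlapped in 9 of 9, whereas they did not overlap in 14.4% of all genes. At an unadjusted p-value under 0.05 there was 1 member of 9, or 11.1%, against 8.59% of all genes, and it was Socs6. This count was also 1 without Control replicate 1 (against 10.5% of all genes), and 0 when any other single sample was left out (against 5.7% to 7.97%). No member other than Cish was called by edgeR or DESeq2 on the recovered reads, or in any of the other alternatives.

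Socs2 (ENSMUSG00000020027, chromosome 10), the paralog closest to Cish in its known link to STAT5 and a brake on growth hormone signaling, was 2.32, 2.08 and 2.24 in the Control and 2.00, 2.30 and 2.93 in the Cripto KO samples. The groups overlapped, and the log2 fold change was -0.11 with an interval of 95% from -0.66 to 0.45 (limma, adjusted p = 0.933). These values rest on 27 to 42 reads in a sample, so a difference of the size that the interval spans was not detectable at this depth. The ratio of Cish to Socs2 was 12.3, 6.89 and 4.49 in the Control samples and 1.13, 1.12 and 0.835 in the Cripto KO samples.

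Socs1 (ENSMUSG00000038037, chromosome 16), an inhibitor of JAK kinases in interferon signaling, was 7.47, 6.93 and 6.90 in the Control and 5.62, 7.75 and 7.07 in the Cripto KO samples. The Cripto KO samples enclosed the Control samples, and the log2 fold change was 0.07 (interval from -0.30 to 0.44, adjusted p = 0.933, limma). Socs3 (ENSMUSG00000053113, chromosome 11), which binds the receptor of IL-6 family cytokines and blocks JAK kinases, was 421, 302 and 384 in the Control and 348, 390 and 376 in the Cripto KO samples. The Control samples enclosed the Cripto KO samples, and the means were 369 ± 60.9 (SD, n = 3) and 371 ± 21.4 (SD, n = 3). Its log2 fold change was -0.02 (interval from -0.28 to 0.24, adjusted p = 0.973, limma).

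Socs4, Socs5, Socs6 and Socs7 form the branch of the family with long amino-terminal parts, of which Socs4 and Socs5 are linked to EGF receptor turnover. Socs6 (ENSMUSG00000056153, chromosome 18) was 67.1, 94.9 and 87.2 in the Control and 69.6, 70.2 and 64.2 in the Cripto KO samples. Control replicates 2 and 3 were above all Cripto KO samples, whereas Control replicate 1 lay among them. The log2 fold change was 0.27 (interval from 0.003 to 0.55, adjusted p = 0.572, limma), and over the alternatives the adjusted p lay between 0.109 and 0.893. Without Control replicate 1 it was 0.42, the largest value over the fits that left out 1 sample.

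Socs4 (chromosome 14) was between 12.5 and 15.2 in the Control and between 13.0 and 15.6 in the Cripto KO samples, with a log2 fold change of -0.07 (interval from -0.36 to 0.21). Socs5 (chromosome 17) was between 7.96 and 9.90 in the Control and between 8.38 and 11.7 in the Cripto KO samples, with a log2 fold change of -0.13 (interval from -0.50 to 0.25). Socs7 (chromosome 11) was between 27.6 and 29.5 in the Control and between 26.7 and 32.2 in the Cripto KO samples, with a log2 fold change of -0.05 (interval from -0.27 to 0.16). In these genes the groups overlapped, and their adjusted p-values were between 0.868 and 0.909 (limma).

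The STAT5 genes encode the factors that carry the signal to Cish, and they neighbour each other on chromosome 11. Stat5a (ENSMUSG00000004043) was 14.2, 12.7 and 14.7 in the Control and 14.3, 12.6 and 15.5 in the Cripto KO samples. Its log2 fold change was -0.02 (interval from -0.30 to 0.25, adjusted p = 0.971, limma). Stat5b (ENSMUSG00000020919) was 47.2, 39.4 and 41.6 in the Control and 43.4, 47.7 and 46.6 in the Cripto KO samples. Its log2 fold change was -0.11 (interval from -0.31 to 0.10, adjusted p = 0.781, limma). Both genes overlapped between the groups. They share sequence, since 11.5% of the 31-base words of Stat5a transcripts were also in Stat5b and 15.1% of those of Stat5b in Stat5a, so a part of their reads could have been split between them. Their sum was between 52.1 and 61.4 in the Control and between 57.7 and 62.0 in the Cripto KO samples.

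**Figure D2:**
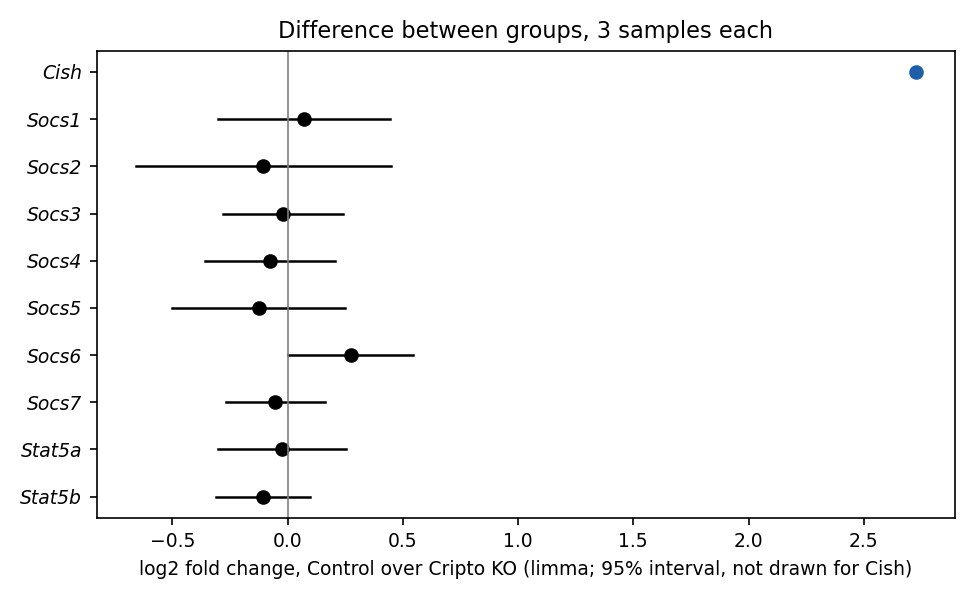
Log2 fold change of Control over Cripto KO for the 10 genes, with the 95% interval of the limma fit on 3 samples a group for each gene but Cish, which was selected on these values. Cish lies at 2.73, and the other 9 genes lie between -0.13 and 0.27.

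Levels were then compared between genes after division by the length of their merged exons, as normalized value per kb. Merged exons can be longer than the longest transcript, with 9531 against 4242 bases for Socs2 and 6419 against 4697 for Cish. The order of genes thus depends on the length used, and no other length was tried. In Control, Socs3 was the highest at 128 ± 21.1 (SD, n = 3), followed by Stat5b at 7.72 ± 0.73 and Socs6 at 7.32 ± 1.26, which did not differ beyond their spread. Socs7 followed at 3.89 ± 0.149 and Cish at 2.75 ± 1.5. Between them the order was not fixed, since Control replicate 1 had 4.44 for Cish and 4.06 for Socs7. Socs1 at 2.44 ± 0.112 lay within the spread of Cish. Socs4 at 2.01 ± 0.193 and Stat5a at 1.94 ± 0.149 overlapped, Socs5 was at 1.38 ± 0.153, and Socs2 was the lowest at 0.232 ± 0.0128. By their means in Cripto KO MPs the other genes kept this order, while Cish was at rank 9, against rank 5 in Control. With merged exons as the length, Cish was at 0.378 ± 0.0258 and Socs2 at 0.253 ± 0.0498 in these MPs. The rank in Control rested on Control replicate 1, since Cish was at rank 4, 6 and 8 within Control replicates 1, 2 and 3, and at rank 8 by the mean without Control replicate 1, a comparison added after the data were seen. It was at rank 9 in each Cripto KO sample. Of the summed normalized values of the 8 family genes, Cish made up 4.92%, 3.04% and 1.87% in the Control and 0.473%, 0.486% and 0.484% in the Cripto KO samples.

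Cish sits in a stretch where another RNA overlaps it. Gm17041 (ENSMUSG00000090570), an antisense gene from 107300380 to 107301838, lies within Cish, and 94.4% of its 31-base words are also in Cish transcripts on the other strand. The library kit named in the labels does not mark strand, so the reads of the pair cannot be told apart. Gm17041 had 15, 8 and 16 reads in Control and 0, 6 and 8 reads in Cripto KO samples, beside 387, 189 and 123 and then 35, 36 and 35 for Cish. Every Control value of Gm17041 was above every Cripto KO value, although Control replicate 2 and Cripto KO replicate 3 had 8 reads each. Its log2 fold change was 2.28 (adjusted p = 0.588, limma), but 0.60 with a pseudocount of 1, 0.94 without Cripto KO replicate 1, and at most 3.04 when other single samples were left out. A second overlapping gene, Gm17040, was not analysed here.

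Neighbours of Cish on chromosome 9 were taken by position, 10 on each side and at most 843 kb away. After adjustment 0 of 20 passed the limma test, against 0.131% of all genes. At an unadjusted p-value under 0.05 there were 8 of 20, 7 of them higher in Control, against 8.59% of all genes. The groups did not overlap in 8 of 20, against 14.4% of all genes. Without Control replicate 1 the count at an unadjusted p-value under 0.05 was 4 of 20 against 10.5% of all genes, and without Control replicate 2 it was 8 of 20 against 7.97%. Without Cripto KO replicate 2 or 3 it was 5 of 20, or 25%, against 7.63% and 5.7% of all genes. Earlier results of these data had shown low p-values in this part of chromosome 9, so the counts are not independent of what chose Cish.

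The nearest neighbour, Mapkapk3, encodes a kinase downstream of p38 MAPK and lies 6.15 kb before Cish, on the opposite strand. It was 114, 64.2 and 62.3 in the Control and 46.1, 39.0 and 45.3 in the Cripto KO samples. As with Cish, Control replicate 1 was the highest and no sample of one group reached the other. Its log2 fold change was 0.83 (standard error 0.20, adjusted p = 0.373, limma), and 0.55 without Control replicate 1.

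On the other side, Hemk1, a methyltransferase of translation release factors, lies 24.3 kb after Cish, also on the opposite strand. It was 4.01, 4.12 and 5.35 in the Control and 6.38, 5.63 and 7.27 in the Cripto KO samples, so that here the Cripto KO samples were the higher ones (log2 fold change -0.52 ± 0.19, SE; adjusted p = 0.512 by limma). The nearest neighbours thus pointed in opposite directions. Manf, which encodes a secreted factor of the endoplasmic reticulum stress response, had a log2 difference, Control minus Cripto KO, of 0.27 (limma, adjusted p = 0.456) at 404 kb. Rbm15b (-0.07), Tmem115 (0.05) and Cyb561d2 (0.11) had values closer to 0, with adjusted p-values between 0.823 and 0.929 (limma).

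**Figure D3:**
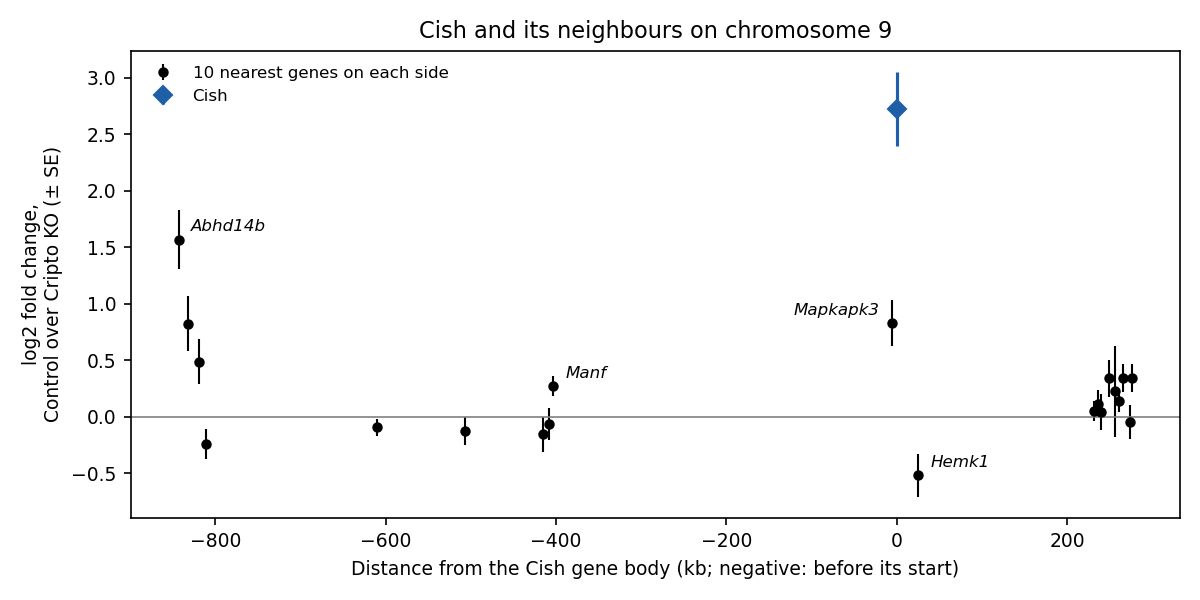
Log2 fold change of Control over Cripto KO, with the standard error, against the distance in kb from the Cish gene body, for Cish (diamond) and the 10 nearest genes of the table on each side. Cish at 2.73 is the highest point, Mapkapk3 lies at 0.83, Hemk1 at -0.52 and Abhd14b, the farthest of the 20, at 1.57.

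The genes whose pattern over the 6 samples was most like that of Cish were then listed. Likeness was the root mean square difference of log2 values, each centred on the mean of its gene, over 11959 genes with a mean of at least 1, where the median was 1.44. The closest were Calml4 (0.629) and Abhd14b (0.637), followed by Klra3 (0.724), Gm10335 (0.725) and Gm11942 (0.740). Calml4 and Abhd14b are both on chromosome 9, but Calml4 starts at 62858080, far from Cish at 107296026. Abhd14b, an alpha/beta hydrolase, is also one of the 20 neighbours. It was 10.8, 7.61 and 5.75 in the Control and 3.08, 2.80 and 2.10 in the Cripto KO samples (log2 fold change 1.57, adjusted p = 0.0894, limma). Calml4, a calmodulin-like gene, was 7.47, 3.07 and 4.69 in the Control and 1.43, 1.66 and 1.41 in the Cripto KO samples. Both had their highest value in Control replicate 1, as did Cish. Klra3 belongs to the Ly49 receptor family, whose members are alike in sequence, and Gm10335 and Gm11942 are processed pseudogenes, so that their reads are uncertain. The log2 fold changes of Gm10335 and Gm11942, 2.80 and 3.64, were above that of Cish at 2.73. Those of Calml4 and Klra3, 1.67 and 1.42, were below it, as was that of Abhd14b.

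The wider JAK-STAT pathway was described from lists of 102 genes besides the members, of which 86 were in the table. After adjustment 0 of 86 passed the limma test (0 also with edgeR), against 0.131% of all genes. At an unadjusted p-value under 0.05 there were 9 of 86, or 10.5%, against 8.59% of all genes. All 9 were higher in Control, whereas 4.6% of all genes had such a p-value and were higher in Control. When single samples were left out, 7 to 12 genes had such a p-value (8.14% to 14%, against 5.7% to 10.5% of all genes). Of these, 6 to 9 were higher in Control. The groups did not overlap in 13 of 86, or 15.1%, against 14.4%. The median log2 fold change was 0.02, and that of all genes 0.01. DESeq2 called 2 of the 86, Gbp2 and Cxcl9.

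Of 17 receptor genes that signal through STAT5, 11 were in the table, with 0 called, 1 with an unadjusted p-value under 0.05 and a median log2 fold change of 0.01. Csf2ra and Csf2rb, the chains of the GM-CSF receptor, were named after their values had been seen. Csf2ra was between 228 and 245 in the Control and between 244 and 260 in the Cripto KO samples, and Csf2rb was between 162 and 210 and between 163 and 194. Il7r, a chain of the IL-7 and TSLP receptors, was 62.8, 66.1 and 58.2 in the Control and 53.2, 53.8 and 55.2 in the Cripto KO samples. The groups did not overlap, but the log2 fold change was 0.20 (adjusted p = 0.512, limma). Epor, the erythropoietin receptor, was low, between 2.02 and 3.60 in the Control and between 2.93 and 5.56 in the Cripto KO samples (log2 fold change -0.58, adjusted p = 0.658, limma). Of 19 ligand genes, 9 were in the table with 0 called and a median of 0.05. Csf2, Il3 and Il5, which encode ligands of STAT5-coupled receptors, were not among the genes of the table. Il15 had a log2 fold change of 0.21 and Lif one of -0.41 (limma, adjusted p = 0.625 and 0.676).

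All 4 JAK kinases were in the table and 0 were called, with a median of 0.08. Jak1 was 181, 181 and 187 in the Control and 158, 169 and 168 in the Cripto KO samples, without overlap (log2 fold change 0.15, adjusted p = 0.537, limma). Jak2, the kinase of the GM-CSF, growth hormone and erythropoietin receptors, had a log2 difference, Control minus Cripto KO, of 0.25 (limma, adjusted p = 0.637), and its groups overlapped.

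Of 15 genes known as STAT5 targets other than Cish and Socs2, 15 were in the table, 0 were called, 2 had an unadjusted p-value under 0.05 and the median was -0.02. Pim1, a kinase gene and target of STAT5 named after its values had been seen, was 969.7, 828 and 1013 in the Control and 865, 968 and 949.97 in the Cripto KO samples, and the groups overlapped. Bcl6, a repressor that shares sites with STAT5, was between 103 and 110 in the Control and between 88.0 and 98.8 in the Cripto KO samples, without overlap (log2 fold change 0.19, adjusted p = 0.523, limma). Cdkn1a, which encodes the cell cycle inhibitor p21, had a log2 difference, Control minus Cripto KO, of 0.27 (limma, adjusted p = 0.54), and its groups overlapped. Over all genes limma called 0.131%, so 0 called of 15 listed targets says little beside the difference of Cish. STAT5 activity was not tested.

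Genes were also taken by the promoter letters alone. Besides Cish, 43 genes of the table had a promoter window with at least 2 matches of TTCNNNGAA. Of these, 0 were called by limma, against 0.131% of all genes. At an unadjusted p-value under 0.05 there were 10 of 43, or 23.3%, against 8.59% of all genes, with 7 of the 10 higher in Control. The 10 were not all separate places, as was seen after their values. Serpinb6a and Ripk1 overlap at their starts on chromosome 13, Gbp5 and Gbp7 lie close together on chromosome 3, and each was higher in Control. The groups did not overlap in 13 of 43, or 30.2%, against 14.4% of all genes. Leaving out single samples brought the count by p-value to 3 (6.98%) without Control replicate 3, against 6.80% of all genes. It was 5, 6 and 4 (11.6%, 14% and 9.3%) without Cripto KO replicates 1, 2 and 3, against 7.59%, 7.63% and 5.7%. Leaving out Control replicate 1 gave 8 (18.6%, against 10.5%) and leaving out Control replicate 2 gave 10 (23.3%, against 7.97%). The median log2 fold change was 0.06. Of 780 genes with at least 1 match, 2 were called (0.256%), and the median was 0.01. Of these 780, 78 had an unadjusted p-value under 0.05, or 10%, against 8.59% of all genes. The groups did not overlap in 118 of them, or 15.1%, against 14.4% of all genes.

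Stat6, the factor of IL-4 signaling, had a log2 difference, Control minus Cripto KO, of 0.14 (limma, adjusted p = 0.571). The 10 listed targets of interferon and IL-6 family cytokines had 0 called, 2 with an unadjusted p-value under 0.05 and a median of 0.10. Gbp2, an interferon-inducible GTPase, was 58.2, 48.9 and 45.1 in the Control and 36.7, 34.5 and 31.9 in the Cripto KO samples (log2 fold change 0.55, adjusted p = 0.166, limma; 0.00538 with DESeq2). Cxcl9, an interferon-induced chemokine, was 14.6, 13.2 and 10.2 in the Control and 7.08, 8.32 and 5.48 in the Cripto KO samples (log2 fold change 0.87, adjusted p = 0.285, limma; 0.0203 with DESeq2). Over the alternatives the adjusted p lay between 0.00538 and 0.638 for Gbp2 and between 0.0203 and 0.729 for Cxcl9.

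Of 14 other receptor genes of the pathway, 14 were in the table with 0 called and a median of 0.08, and Il6ra (0.16, adjusted p = 0.588) and Ifnar2 (0.12, adjusted p = 0.688) had the smallest p-values in limma. SOCS proteins work through a ubiquitin ligase with elongins, Cul5 and Rnf7. Of 8 genes for such partners, 8 were in the table with 0 called and a median of -0.05. Rbx1 had a log2 difference, Control minus Cripto KO, of -0.15 (limma, adjusted p = 0.69) and Rnf7 one of -0.06 (adjusted p = 0.84, limma). Of 13 other inhibitors of the pathway, such as phosphatases and PIAS proteins, 13 were in the table with 0 called and a median of 0.02. The phosphatase gene Ptprc, which encodes CD45, had a log2 difference, Control minus Cripto KO, of 0.18 (limma, adjusted p = 0.567), and Usp18, an inhibitor of the type I interferon receptor, one of 0.25 (adjusted p = 0.603, limma).

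**Figure D4:**
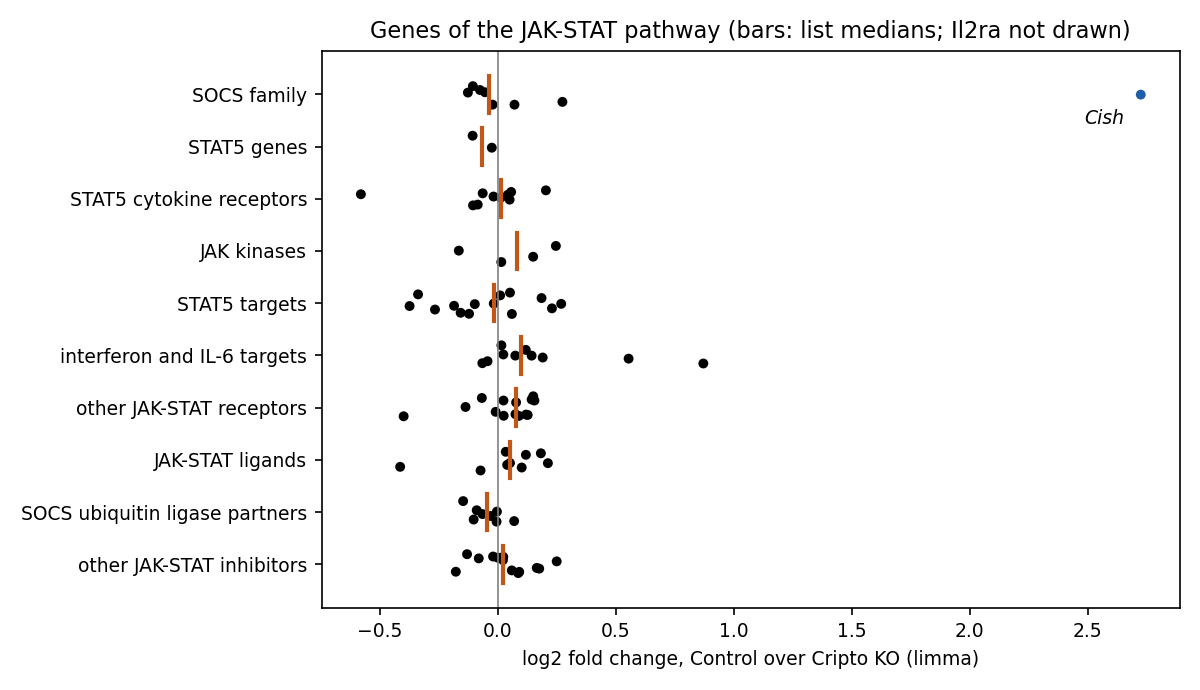
Log2 fold change of Control over Cripto KO for single genes (points) of 10 lists of the JAK-STAT pathway, with a bar at the median of each list over its genes in the table. Cish at 2.73 stands apart, and the medians lie between -0.07 and 0.10. Il2ra, with few reads in all samples, is not drawn.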

How the data were processed

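RNA-seq of 3 Control and 3 Cripto KO samples was used. Per the study's methods and the submitters' notes, the authors trimmed reads with Cutadapt 1.7.1 (reads under 30 bp discarded), estimated gene abundance with RSEM 1.2.20 against GRCm38 transcripts of Ensembl release 91, and used limma to normalize. What the authors deposited is thus a signal, scaled for library size, for every gene in every sample. Whole reads were recovered in 100% of 78048 values, within 0.01 read. Groups were compared with limma 3.58.1 in R 4.3.3 (lmFit, then eBayes with trend) after taking log2 with no pseudocount, and p-values were adjusted by Benjamini-Hochberg over 13008 genes. Alternatives were pseudocounts of 0.5 and 1, a mean of at least 1, quantile normalization, median centring, other variance models, voom, edgeR 4.0.16, DESeq2 1.42.0, fits with a replicate block, and fits that dropped 1 sample at a time. No set test was run. Positions and transcripts were those of GENCODE mouse release 21 (GRCm38; 12989 genes placed), and promoters from RefSeq (GRCm38.p6). Promoter sequences of Socs2, Socs5, Socs6 and Socs7 were not used here.

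The members and lists were chosen with earlier results of these data known. Named are all members, in each pathway list any gene passing adjustment at 0.05 or else the 2 with the smallest p, the 3 nearest neighbours of Cish on each side and any that passed, and the 5 genes most like Cish. A gene that this rule names, and the list it belongs to, are not reported here. The scripts were tested on simulated data. The number of reads limits the precision, and the floor of 3 reads covers counting error only.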

Additional observations from a re-analysis of the deposited data

How the results depend on the processing

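The log2 fold change of Cish was between 2.32 and 2.87 over the alternatives that kept all samples and between 2.31 and 3.06 when 1 sample was left out. Its rank per kb among the members in Control went from 5 to 8 without Control replicate 1. The count of called members other than Cish was 0 in all 17 alternatives. Over the whole table, 17 genes were called with limma, and 6 with quantile normalization, 5 without a variance trend, 31 with the robust option, 9 with voom weights and 71 with DESeq2. It was 31 without Control replicate 1, 7 without Control replicate 3, 10, 5 and 7 without Cripto KO replicates 1, 2 and 3, a range of 5 to 31. With the replicate block 2 genes were called. Deviations of same-numbered samples from their group means correlated at -0.158, 0.0368 and 0.0162 across genes. With 3 samples in each mean, these correlations cannot settle whether same-numbered samples were handled together. DESeq2 called 2 genes of the pathway lists, and the robust option and DESeq2 each called 1 neighbour of Cish, Abhd14b (adjusted p = 0.0269 and 5.58e-05). The causes were not tested.

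Log2 fold changes close to 0 changed sign when single samples were left out. They ranged from -0.061 to 0.17 for Socs1, -0.23 to 0.045 for Socs2, -0.12 to 0.12 for Socs3, -0.23 to 0.017 for Socs5, -0.12 to 0.014 for Socs7, -0.10 to 0.044 for Stat5a, -0.21 to 0.042 for Rbm15b and -0.0097 to 0.084 for Tmem115. Of 577 values for 34 genes taken by the naming rule, 565 kept their direction and their side of the threshold. Reads of Socs2, 27 to 42 in a sample, limit what could be seen in it.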
